A study of Gallus gallus with 8 samples.

Results

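The comparison described here set the 4 arrays of higher-fertility hens against the 4 arrays of lower-fertility hens, over 2 sources of hens together. It used all 8 arrays of the series. The groups, with 2 arrays each, were DPF+ and HG+ on the higher-fertility side and DPF- and HG- on the lower-fertility side. Per the labels, DPF+ and DPF- are lines of hens (Gallus gallus) under divergent selection, and HG+ and HG- are hens of the same line that differ in fertility; the letters DPF and HG are not spelled out in the sources used here. Housing was the same for all groups, at 20 °C on standard layer feed, with 14 h of light per day. The samples are given as oocytes of the F1 stage taken 24 h before ovulation, and each array received 20 µg of amplified RNA labelled with biotin. The labels call the arrays of a group biological replicates and do not say whether they come from separate birds or from pools, so the spread between them may be in part technical. Being different lines, DPF+ and DPF- may differ in any trait that selection or drift has separated, and line and fertility cannot be told apart there.

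Hens carry a series of yellow follicles graded by size, of which F1 is the largest and the next to ovulate. The oocyte in it has taken up its yolk and holds the maternal RNA and protein on which the embryo first depends, mostly in the germinal disc. Around it lie the perivitelline layer, a coat of zona pellucida proteins, and the granulosa cells, which make progesterone before ovulation, with the theca outside them.

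Markers of both the oocyte and the granulosa cells were found on the arrays. Of the oocyte and germ line genes on the array, 15 of 32 reached a log2 value of 4 on at least 2 of the 8 arrays, the filter for testing, among them DAZL and BTG4. The oocyte growth factors GDF9 and BMP15 and the germ cell helicase DDX4 did not. Of the granulosa genes 19 of 28 passed, with the steroidogenic enzyme CYP11A1 between 9.91 and 11.59 on all arrays. Over the tested members the mean log2 level was 5.42 for the oocyte and germ line genes and 9.17 for the granulosa genes. Of the red blood cell genes 0 of 9 passed, and of the leukocyte genes 2 of 19. In bulk samples of this kind, fewer cells of a type and less RNA per cell cannot be told apart.

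The change given below is the mean of the DPF+ minus DPF- and the HG+ minus HG- differences in log2 value, from a fit with hen source as a covariate. Of the 12725 probe sets tested in limma, 0 were called higher (0%) and 0 lower (0%) at an adjusted p of 5%, and the smallest adjusted p was 0.998. An unadjusted p under 0.05 was reached by 262 probe sets (2.06%), 98 higher (0.77%) and 164 lower (1.29%), where 636.25 would be expected with no differences at all. The changes were small, with a median size of 0.117, and 23 probe sets had a change of 1 or more in size.

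Hen source took 45.6% of the sum of squares over the tested probe sets, with 1 degree of freedom. The fertility difference shared by both sources took 7.19%, the part of the fertility difference that ran apart between the sources took 6.83%, and the arrays of a group took 40.3% with 4 degrees of freedom, or 10.1% for each. Per degree of freedom, the shared fertility difference thus lay below the spread of arrays within groups. It was the largest of these terms in 9.72% of the probe sets. In a principal component analysis the first component (51.6% of the variance) held the DPF arrays at -3.1 or lower and the HG arrays at 22.1 or higher, and the second (26.8%) set DPF+ replicate 2 apart at -55.1, with the other 7 arrays between -7.2 and 15.6. Differences between replicates were widest in DPF+, with an SD over probe sets of 0.746, and were 0.276 in HG+, 0.456 in DPF- and 0.282 in HG-.

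The direction of the difference was shared about as often as it was not. The DPF and the HG difference had the same sign in 6439 probe sets (50.6%), 3150 higher in both plus groups (24.8%) and 3289 lower in both (25.8%). Opposite signs were found in 6009 (47.2%), of which 3415 were higher in DPF+ and lower in HG+ (26.8%) and 2594 the reverse (20.4%), and 277 (2.18%) had no difference in at least 1 source. The 2 differences were hardly related across probe sets (Pearson's r = 0.0354, Spearman rank coefficient = 0.0383, probe sets not being independent replicates), and the sources share no array. The DPF differences were wider, with a median size of 0.205 against 0.095 in HG, as the plot of both sources shows.

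**Figure D1:**
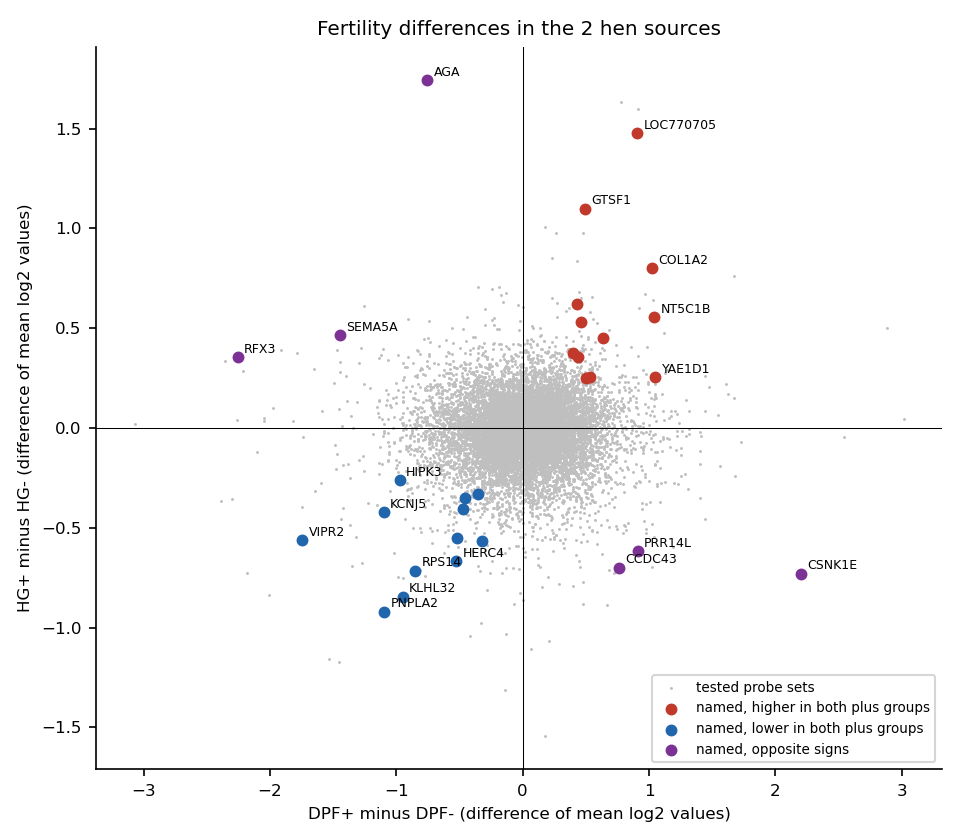
Difference DPF+ minus DPF- (horizontal, log2) and HG+ minus HG- (vertical, log2) of the 12725 tested probe sets (grey), with the named genes in colour. The cloud has no slope (Pearson's r = 0.0354), and LOC770705, GTSF1 and COL1A2 stand out at upper right, PNPLA2, KLHL32 and RPS14 at lower left.

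The plus and minus arrays did not overlap within either source, with the same sign in both, in 441 probe sets (3.47%), of which 187 were higher (1.47%) and 254 lower (2%) in the plus groups. The same with opposite signs held for 399 probe sets (3.14%), with 239 higher in DPF+ (1.88%) and 160 higher in HG+ (1.26%). In 84 probe sets (0.66%) all 8 arrays were separated by fertility, with the 4 plus arrays above the 4 minus arrays in 42 (0.33%) and below them in 42 (0.33%). Genes to be named were taken from those without overlap, with a difference of at least 0.25 in each source and the higher group at 4 or more. That left 26 genes higher and 42 lower in both plus groups, and the 12 of smallest unadjusted p in each direction are described in turn. None of them passed the test, and each had a limma adjusted p of 0.998. Where a group's mean was under 4, and so not above background, the change was computed with 4 in its place and is given as a limit ("or more", "or lower").

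LOC770705, a gene known only by its locus number, had the smallest p of all. Its values were 10.77 and 10.35 in DPF+ against 9.57 and 9.74 in DPF-, and 7.47 and 8.04 in HG+ against 5.94 and 6.61 in HG-. Within each source both plus arrays were above both minus arrays, while all DPF arrays lay above all HG arrays. The change was 1.19 ± 0.22 (SE; limma unadjusted p = 0.000425, adjusted p = 0.998). The other probe set of the gene had 7.25 and 6.11 in DPF+ against 6.20 and 5.33 in DPF-, and 5.58 and 2.44 in HG+ against 2.44 and 2.38 in HG-, with overlap in both sources and 1 HG array above 4.

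GTSF1, a zinc finger protein of the piRNA pathway, which keeps transposons silent in germ cells, came next. It had 6.72 and 6.71 in DPF+ against 6.23 and 6.21 in DPF-, and 6.20 and 6.02 in HG+ against 5.04 and 4.98 in HG-. The arrays of a group lay close together, and the difference was wider in HG (1.10) than in DPF (0.495). With all arrays the change was 0.80 ± 0.16 (limma unadjusted p = 0.000787, adjusted p = 0.998).

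BIN1 codes for a BAR domain protein that bends membranes in endocytosis. Its values were 9.49 and 9.47 in DPF+ against 8.93 and 9.11 in DPF-, and 9.92 and 9.81 in HG+ against 9.27 and 9.40 in HG-. All 4 plus arrays thus lay above all 4 minus arrays, and the differences of 0.46 in DPF and 0.53 in HG were of like size. The change was 0.495 ± 0.11 (limma unadjusted p = 0.0016, adjusted p = 0.998).

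COL1A2, a chain of type I collagen made by stromal cells, had 5.53 and 4.52 in DPF+ against 4.21 and 3.79 in DPF-, and 7.54 and 7.58 in HG+ against 6.91 and 6.61 in HG-. The change was 0.91 ± 0.23 (limma unadjusted p = 0.00315, adjusted p = 0.998). Its 2 other probe sets had changes in the same direction. Of these, 1 was under 4 on all DPF arrays and so showed a difference in HG only (0.85). The probe set that stood for the gene in the lists gave 5.97 and 4.68 in DPF+ against 4.50 and 4.08 in DPF-, and 8.93 and 8.87 in HG+ against 8.01 and 8.51 in HG-, a change of 0.84 ± 0.28. Of the other 5 tested genes of the theca, stroma and matrix list none was without overlap in both sources. Vimentin (VIM) had a change of 0.18, the matrix proteins FN1 and SPARC 0.05 and -0.03, the myosin kinase MYLK -0.15, and PDGFRB, a receptor of perivascular cells, -0.23.

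The other 8 genes higher in both plus groups had unadjusted p values of 0.00754 to 0.0284. KMT2C, a histone H3 lysine methyltransferase, differed by 0.505 in DPF and 0.25 in HG (change 0.38 ± 0.12), with 1 of its 4 other probe sets opposite. GNMT, which uses up S-adenosylmethionine by methylating glycine, differed by 0.40 and 0.375 (change 0.39 ± 0.14), with 1 of 2 other probe sets opposite. OSGEPL1, an enzyme of tRNA modification in mitochondria, had 4.82 and 4.45 in DPF+ against 4.27 and 4.13 in DPF-, and 4.60 and 4.54 in HG+ against 4.30 and 4.13 in HG-, so that all plus arrays lay above all minus arrays, by 0.395 ± 0.14. C9ORF58 was likewise separated over all 8 arrays (change 0.54 ± 0.19). The other probe set of C9ORF58 had 0.20 ± 0.21 and that of OSGEPL1 a mean of 3.87, both with overlap in each source. In 4 genes a minus group lay under 4. These were the kinase STK16 (change 0.30 or more), YAE1D1, whose yeast counterpart helps to load iron-sulfur clusters (0.38 or more), the sulfotransferase SULT1B1 (0.33 or more) and the nucleotidase NT5C1B (0.795 or more). Of the 2 other YAE1D1 probe sets, the one of higher mean (5.88) had 0.05 ± 0.15 with overlap in both sources. The remaining YAE1D1 probe set had 0.055 or more.

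**Figure D2:**
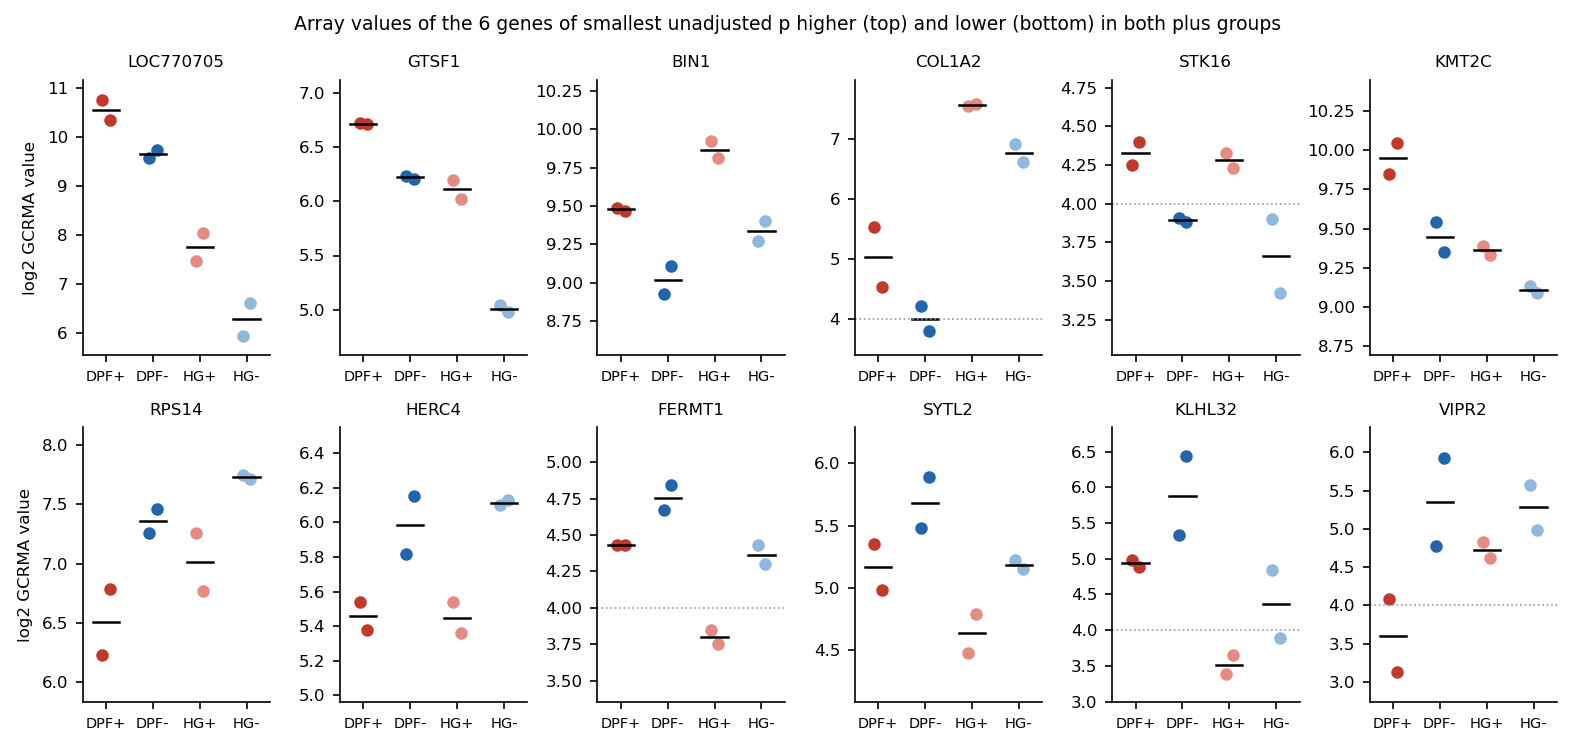
Log2 GCRMA values on each array (points) and group means (bars), n = 2 arrays a group, for the 6 genes of smallest unadjusted p in each direction, with a dotted line at 4. In each panel the plus arrays of a source do not overlap its minus arrays, while for genes such as LOC770705 and COL1A2 the sources differ by more than the fertility groups.

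RPS14, a protein of the small ribosomal subunit, had the smallest p among the genes lower in both plus groups, on a probe set with a mean of 7.15. Its values were 6.23 and 6.79 in DPF+ against 7.26 and 7.46 in DPF-, and 7.26 and 6.77 in HG+ against 7.75 and 7.71 in HG-. The change was -0.78 ± 0.175 (limma unadjusted p = 0.00157, adjusted p = 0.998). The gene's other probe sets did not show it, as 2 of the 3 were opposite and the remaining one, with a mean of 11.80, had a change of -0.09 ± 0.11.

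HERC4 codes for a ubiquitin ligase. It had 5.54 and 5.38 in DPF+ against 5.82 and 6.15 in DPF-, and 5.54 and 5.36 in HG+ against 6.10 and 6.13 in HG-. All plus arrays lay below all minus arrays, at almost the same levels in both sources, and the change was -0.595 ± 0.14 (limma unadjusted p = 0.00229, adjusted p = 0.998). The other probe set had 0.19 ± 0.20, the opposite direction.

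PNPLA2, the adipose triglyceride lipase that starts the breakdown of stored fat, had 6.10 and 6.06 in DPF+ against 6.35 and 8.00 in DPF-, and 4.90 and 4.71 in HG+ against 6.08 and 5.37 in HG-. The groups did not overlap within a source, but the minus arrays were far apart, and the change of -1.01 ± 0.33 was -0.66 without DPF- replicate 2. VIPR2, a receptor of vasoactive intestinal peptide, had 4.08 and 3.13 in DPF+ against 4.77 and 5.93 in DPF-, and 4.83 and 4.62 in HG+ against 5.58 and 4.99 in HG-, a change of -0.955 or lower. ZFP36L2, an RNA-binding protein that destabilizes mRNA and that mouse oocytes need to mature, had 8.61 and 8.35 in DPF+ against 8.84 and 9.04 in DPF-, and 7.82 and 7.65 in HG+ against 8.14 and 8.03 in HG-. Its change was -0.405 ± 0.13 and its difference of like size in both sources, -0.46 in DPF and -0.35 in HG.

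HIPK3, a nuclear kinase, was lower on all 4 plus arrays than on all 4 minus arrays, with 6.66 and 6.34 in DPF+ against 7.18 and 7.77 in DPF-, and 6.88 and 6.72 in HG+ against 7.07 and 7.05 in HG- (change -0.62 ± 0.20). SYTL2, which tethers secretory vesicles, had a change of -0.535 ± 0.16, DNER, a ligand of Notch type, -0.44 ± 0.15, and FAM13A -0.34 ± 0.11. With a plus group under 4 the changes were bounds, at -0.345 or lower for the integrin activator FERMT1, -0.66 or lower for KLHL32 and -0.455 or lower for the potassium channel KCNJ5. The other FERMT1 probe set, with a mean of 5.54, had opposite signs, -0.25 in DPF and 0.105 in HG (change -0.07 ± 0.16). The 2 other KCNJ5 probe sets differed by 0.055 and -0.185 in HG, both with overlap there. For KLHL32 the minus arrays lay far apart, at 5.33 and 6.44 in DPF- and 4.84 and 3.89 in HG-. Its other probe set was not separated in either source. That probe set had 5.03 and 5.02 in DPF+ against 5.03 and 6.51 in DPF-, and 3.70 and 3.53 in HG+ against 4.91 and 3.68 in HG-. The 12 genes lower in both plus groups had limma unadjusted p values of 0.00157 to 0.0173. The 14 further genes higher in both plus groups had fitted changes of 0.26 to 0.56, and the 30 further genes lower in both -0.98 to -0.26. These ranges were not counted from 4. The lowest value was that of CLDN10, whose plus groups were both under 4. Counted from 4 its change was -0.44 or lower.

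The choice of these 24 genes by lack of overlap fixes their direction when 1 array is left out, but the size of 3 moved by over 1.5 times. Beside PNPLA2 these were NT5C1B, whose fitted change of 0.80 was 0.53 without DPF+ replicate 2, and KCNJ5, whose fitted change of -0.76 was -0.50 without DPF- replicate 2. A measure of RNA quality moved with the comparison. The 3' minus 5' log2 difference of the control transcripts (mean of actin, GAPDH and EF1a), which is larger where RNA or its copies are shorter, was 1.82 and 1.86 in DPF+ against 1.54 and 1.33 in DPF-, and 1.15 and 1.17 in HG+ against 1.10 and 1.04 in HG-. It was higher in the plus group of each source with no overlap, by 0.245 on average (exact two-sided permutation p = 0.0556, the smallest of the 36 arrangements within sources). Taken singly, each transcript was without overlap in DPF, but in HG only EF1a was (0.77 and 0.83 against 0.74 and 0.75). Actin had 2.32 and 2.39 in HG+ against 2.43 and 2.00 in HG-. GAPDH had 0.37 and 0.29 in HG+ against 0.13 and 0.37 in HG-. The measure used below is the mean of these transcripts. With this measure as a covariate, a setting added after the data were seen, LOC770705 (1.64), GTSF1 (1.11) and BIN1 (0.61) had larger changes, while 11 of the 24 were at under 2/3 of their size, among them PNPLA2 (-0.39), NT5C1B (0.11), VIPR2 (-0.11), KCNJ5 (-0.01) and HIPK3 (-0.01). As plus and minus arrays did not overlap in this measure within either source, that fit can hardly separate it from fertility. The gap was wider in DPF than in HG, so the covariate took up more of the DPF difference.

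Some genes differed in opposite directions, and for these the mean of both sources says little. The 6 of smallest p were RFX3, a transcription factor of ciliated cells, the axon guidance protein SEMA5A, the casein kinase CSNK1E, the lysosomal enzyme AGA, CCDC43 and PRR14L. The AGA probe set differed by -0.755 in DPF and 1.745 in HG. Its 2 other probe sets had the reverse signs, with 0.06 and 0.115 in DPF and -0.33 and -0.175 in HG. The other probe sets of SEMA5A and PRR14L had the same signs as the ones used. RFX3 had 4.65 and 5.04 in DPF+ against 6.75 and 7.45 in DPF-, but 6.01 and 6.08 in HG+ against 5.56 and 5.82 in HG-. CSNK1E, which phosphorylates clock proteins, ran the other way, with 5.20 and 5.94 in DPF+ against 3.05 and 3.69 in DPF-, and 6.35 and 6.49 in HG+ against 7.41 and 6.89 in HG-. The DPF minus HG difference between these contrasts was -2.61 ± 0.40 for RFX3 (limma adjusted p = 0.893) and, counted from 4 as DPF- was under it, 2.30 or more for CSNK1E (adjusted p = 0.988). Over all probe sets 0 passed this test of a difference between the sources (0%), and 364 (2.86%) had an unadjusted p under 0.05.

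Gene lists were described by the members' shared change, 1 probe set for each gene. Over all 7042 tested genes 28.2% were higher in both plus groups and 24.3% lower in both, with a median change of 0.015 (0.045 in DPF and -0.01 in HG). Without overlap in either source were 110 genes higher (1.56%) and 111 lower (1.58%) in both plus groups. Called members were 0 in every list. The plot of list medians gives the 22 lists with at least 5 tested genes.

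**Figure D3:**
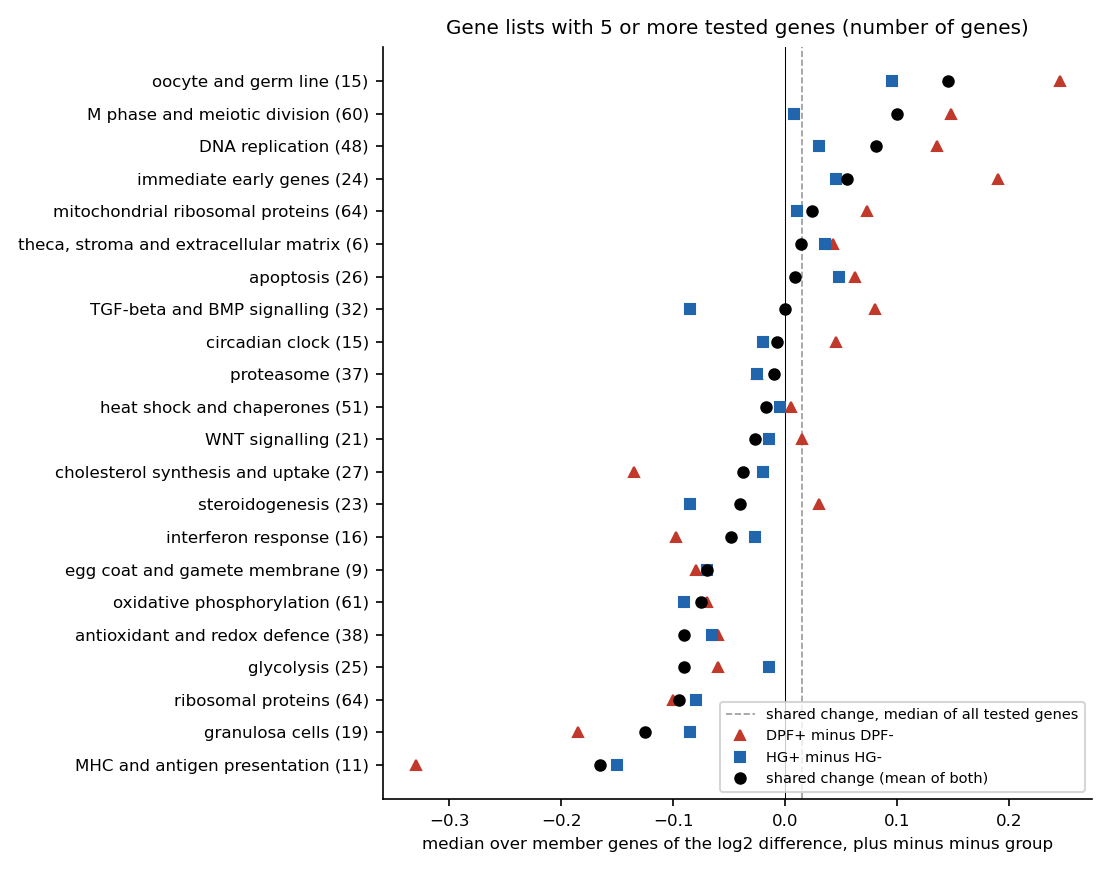
Median over member genes of the log2 difference in each source and of the shared change, for lists with 5 or more tested genes (number in brackets). The shared medians lie between -0.165 (antigen presentation) and 0.145 (oocyte and germ line), beside 0.015 for all genes (dashed line).

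The oocyte and germ line genes had positive changes in 15 of 15 tested members, with a median of 0.145 (0.245 in DPF, 0.095 in HG), and 12 (80%) were higher in both plus groups, against 28.2% of all genes. GTSF1 was without overlap in both sources and the other 14 were not. Examples are NOBOX, a transcription factor of the oocyte (change 0.45 ± 0.36), PIWIL1, a piRNA-binding Argonaute protein (0.325 ± 0.32), the egg nucleoplasmin NPM2 (0.22 ± 0.17), and DAZL, which binds and activates germ cell mRNA (0.14 ± 0.32). These values moved with single arrays. BTG4, which directs the removal of maternal mRNA, had 6.70 and 8.50 in DPF+ against 7.88 and 6.96 in DPF-, and 7.86 and 8.18 in HG+ against 8.10 and 7.75 in HG-. In 11 of the 15 genes DPF+ replicate 2 was the highest DPF array and in 10 DPF- replicate 2 was the lowest. Without DPF+ replicate 2 the median was -0.01 and 2 of 15 (13.3%) were higher in both, beside 19.5% of all genes. Without DPF- replicate 2 it was 0.04 and 4 of 15 (26.7%, beside 24.1%). Without HG+ replicate 2 it was 0.13 and 6 of 15 (40%, beside 23.3%). GTSF1 did not follow that order, since its DPF+ arrays were almost equal, and so were its DPF- arrays.

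**Figure D4:**
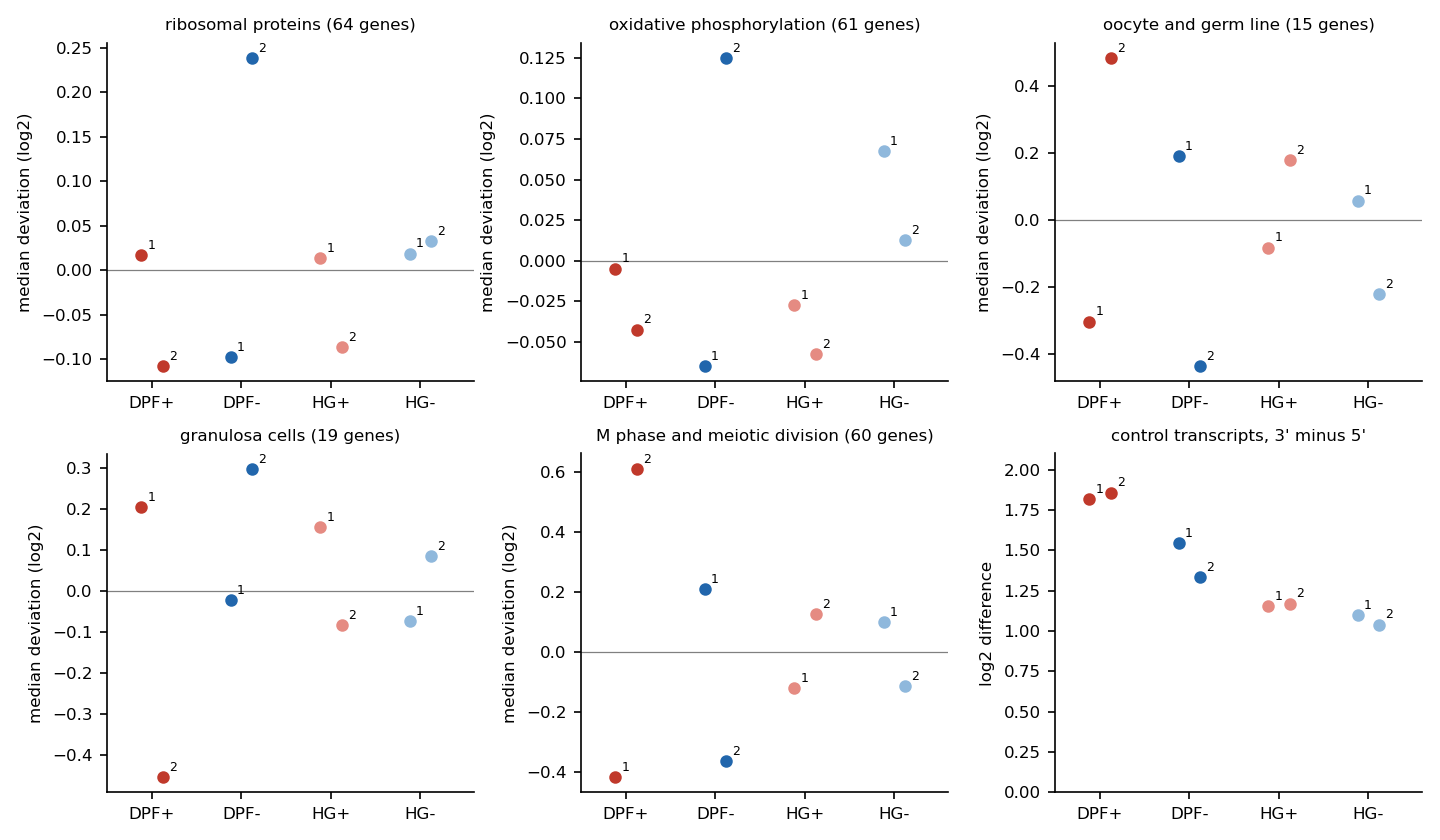
Median over list members of the log2 value minus the mean of the 4 arrays of the source, for each array (replicate number beside the point), and at lower right the 3' minus 5' log2 difference of control transcripts. DPF+ replicate 2 lies at 0.48 for the oocyte genes, 0.61 for M phase and -0.45 for granulosa, and DPF+ replicate 1 on the other side of 0 in each.

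DPF+ replicate 2 was also high for cell division genes. The 60 M phase and meiotic division genes had a median change of 0.10 (0.15 in DPF, 0.01 in HG), 24 (40%) were higher and 7 (11.7%) lower in both plus groups, and DPF+ replicate 2 was the highest DPF array for 47 of them, with DPF+ replicate 1 the lowest for 32. Leaving out DPF+ replicate 2 gave a median of -0.13, and leaving out DPF- replicate 2 gave -0.05. The number higher in both also moved with single HG arrays. It was 9 (15%, beside 23.3% of all genes) without HG+ replicate 2, with 13 (21.7%) lower in both. Without HG- replicate 2 it was 11 (18.3%, beside 23.7%), with 11 lower in both. NUF2, of the outer kinetochore, had a change of 0.59 ± 0.31 and the spindle protein TPX2 0.43 ± 0.35, neither without overlap in both sources. The 48 DNA replication genes, with a median of 0.08, had -0.11 and -0.03 without the same arrays.

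Granulosa genes were mostly lower in the plus groups without passing the test. Of 19, 16 had a negative change, 9 (47.4%) were lower and 2 (10.5%) higher in both plus groups, and the median was -0.125 (-0.185 in DPF, -0.085 in HG). CYP11A1, the enzyme that cuts the cholesterol side chain, had 11.32 and 9.91 in DPF+ against 10.91 and 11.59 in DPF-, and 11.28 and 10.78 in HG+ against 10.90 and 11.41 in HG-, a change of -0.38 ± 0.31 with overlap in both sources. Others were INHBA, an activin subunit (-0.37 ± 0.37), anti-Müllerian hormone AMH (-0.24 ± 0.16), the LH receptor LHCGR (-0.23 ± 0.22) and follistatin FST (0.29 ± 0.18). DPF+ replicate 2 was the lowest DPF array for 11 of the 19, and without it the median was 0.05. Those lower in both were 3 (15.8%, beside 21.5% of all genes) without HG+ replicate 2 and 4 (21.1%, beside 23.2%) without HG- replicate 2. For oocyte, M phase and granulosa genes the direction also turned with the 3' minus 5' difference as a covariate, to medians of -0.27, -0.29 and 0.12. As that covariate can hardly be separated from fertility on these arrays, the medians do not show what the lists owe to RNA quality. The oocyte, M phase, DNA replication and granulosa lists ordered the arrays alike, with granulosa reversed. In each source, plus replicate 1 lay on the same side of 0 as minus replicate 2. On the other side lay plus replicate 2 and minus replicate 1. The same order held for the median of all 7042 tested genes. In DPF it was -0.0625 and 0.10 on plus replicates 1 and 2, and 0.02 and -0.0775 on minus replicates 1 and 2. Apoptosis genes also had this order, and steroidogenesis and cholesterol synthesis genes the reverse. The order is thus not particular to these lists, and their medians are not separate results.

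Ribosomal proteins and oxidative phosphorylation were one-sided with small changes. Of 64 ribosomal protein genes, 54 had a negative change, and 38 (59.4%) were lower in both plus groups and 5 (7.81%) higher, with a median of -0.095 (-0.10 in DPF, -0.08 in HG). None was without overlap in both sources. RPL7A, of the large subunit, had 10.45 and 9.91 in DPF+ against 10.39 and 10.97 in DPF-, and 10.94 and 10.75 in HG+ against 10.88 and 11.01 in HG- (change -0.30 ± 0.18), and its plus and minus arrays overlapped in both sources. The highest DPF array was DPF- replicate 2 for 47 of the 64, and without it 16 (25%) were lower in both, beside 26.5% of all genes, with a median of -0.03. Of 61 oxidative phosphorylation genes, 45 had a negative change and 35 (57.4%) were lower in both, with a median of -0.075. NDUFB5 of complex I (-0.30 ± 0.14) and the Rieske protein UQCRFS1 of complex III (-0.30 ± 0.22) had the lowest changes, and NDUFS6 (-0.08 ± 0.10) was the only member without overlap in both sources. The other probe set of NDUFS6 had 0.025 ± 0.12, the opposite direction. Of the oxidative phosphorylation genes 20 (32.8%) were lower in both without DPF+ replicate 2, beside 27% of all genes, and 22 (36.1%) without DPF- replicate 2, beside 26.5%. With the 3' minus 5' difference as a covariate, which can hardly be separated from fertility, the ribosomal and oxidative phosphorylation medians were 0.07 and 0.01.

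Antigen presentation genes were mostly lower, with a median of -0.165 over 11 genes, 9 of them negative, and 4 were lower with an unadjusted p under 0.05 and 0 higher, beside 0.909% and 0.738% of all genes. Leaving out 1 array gave medians of -0.37 (without DPF+ replicate 1) to -0.14 (without HG- replicate 2), and the number lower in both, 5 with all arrays, ran from 3 (without DPF+ replicate 2 or HG+ replicate 2) to 8 (without HG+ replicate 1 or HG- replicate 1). DPF+ replicate 2 was the lowest DPF array for 8 of the 11. BG8, which belongs to the B-G family in the chicken MHC, had 5.23 and 5.09 in DPF+ against 6.69 and 6.58 in DPF-, and 5.20 and 5.11 in HG+ against 5.48 and 5.24 in HG-. All plus arrays lay below all minus arrays, but the difference was -1.475 in DPF and -0.205 in HG, and the change of -0.84 ± 0.25 had a limma adjusted p of 0.998. BF2, a class I heavy chain, had 4.78 and 4.42 in DPF+ against 5.72 and 5.62 in DPF-, with all HG arrays under 4, so its change (-0.535 counted from 4) came from DPF alone. TAPBP, which helps to load class I molecules, had opposite signs in the sources, and MHCY4, of the Y region, had -0.65 ± 0.24 with overlap in DPF. With the 3' minus 5' covariate, which can hardly be separated from fertility, BG8 was -0.23 and BF2 -0.16.

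Of the immediate early genes 10 of 24 (41.7%) were higher in both and 2 lower (median 0.055). Those higher in both were 5 (20.8%, beside 23.3% of all genes) without HG+ replicate 2. They were 6 (25%) without DPF- replicate 2, beside 24.1% of all genes, and also without HG- replicate 1, beside 32%. The member without overlap in both sources was ZFP36L2, given above, which was lower. The transcription factor EGR1 was at 7.43 and 7.29 in DPF+ against 7.31 and 6.55 in DPF-, and 8.76 and 8.43 in HG+ against 7.49 and 8.03 in HG-. The DPF arrays of EGR1 overlapped and its HG arrays did not, and its change was 0.63 ± 0.21 (limma unadjusted p = 0.0158, adjusted p = 0.998). Antioxidant genes were lower in both in 18 of 38 (47.4%) and higher in 6, with a median of -0.09, and the peroxiredoxin PRDX6 was lower without overlap (-0.27 ± 0.14). Without DPF+ replicate 2 the antioxidant median was -0.014 and 13 (34.2%) were lower in both, without DPF- replicate 2 it was -0.05 with the same number, and without HG+ replicate 2 it was -0.07 and 12 (31.6%). Of the chaperones 14 of 51 were higher and 12 lower in both, and those without overlap were the cytosolic HSP90AB1 (0.40 ± 0.21), the constitutive HSPA8 (0.125 ± 0.09) and the co-chaperone DNAJA2 (-0.25 ± 0.13). Steroidogenesis (median -0.04), TGF-beta and BMP signalling (0), the proteasome (-0.01), the circadian clock (-0.01), apoptosis (0.01), mitochondrial ribosomal proteins (0.02) and egg coat genes (-0.07, with the coat protein ZP3 at -0.07 ± 0.08) had small medians, as did WNT signalling (-0.03), cholesterol synthesis (-0.04), interferon response (-0.05) and glycolysis (-0.09). In these lists the apoptosis effector BAK1 (0.17 ± 0.14), the proteasome subunit PSMD12 (-0.265 ± 0.15) and the mitochondrial ribosomal proteins MRPL44 (0.25 ± 0.14) and MRPS31 (-0.23 ± 0.12) were without overlap in both sources. None of these differed by 0.25 in each source. Most of the difference lay in DPF for MRPL44 (0.46, against 0.045 in HG) and BAK1 (0.265 against 0.075). The same held for the chaperone HSP90AB1 (0.675 against 0.13). The cholesterol synthesis median moved with single arrays. It was -0.14 without DPF+ replicate 1, with a negative change in 22 of 27 genes. Without DPF+ replicate 2 it was 0.11, with a positive change in 20 of 27. The 4 tested genes of the liver and yolk precursor list had a median of -0.53, which was -1.10 in DPF and -0.04 in HG. Leaving out DPF+ replicate 2 gave this list a median of -0.21, and leaving out DPF- replicate 2 gave -0.19. In it the plasma protein ALB had 9.28 and 6.75 in DPF+ against 7.97 and 11.00 in DPF-, and 7.77 and 8.44 in HG+ against 8.14 and 8.33 in HG-, with overlap in both sources.

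The lack of calls did not rest on 1 array or 1 setting. The shared fertility difference was also fitted with other filters, scalings, variance models, covariates or arrays left out. In each of these fits of the shared difference 0 probe sets passed an adjusted p of 5%. The share at an unadjusted p under 0.05 lay below 5% in all of them but the fit without DPF+ replicate 1, where it was 5.01%, as the plot of that share by setting shows.

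**Figure D5:**
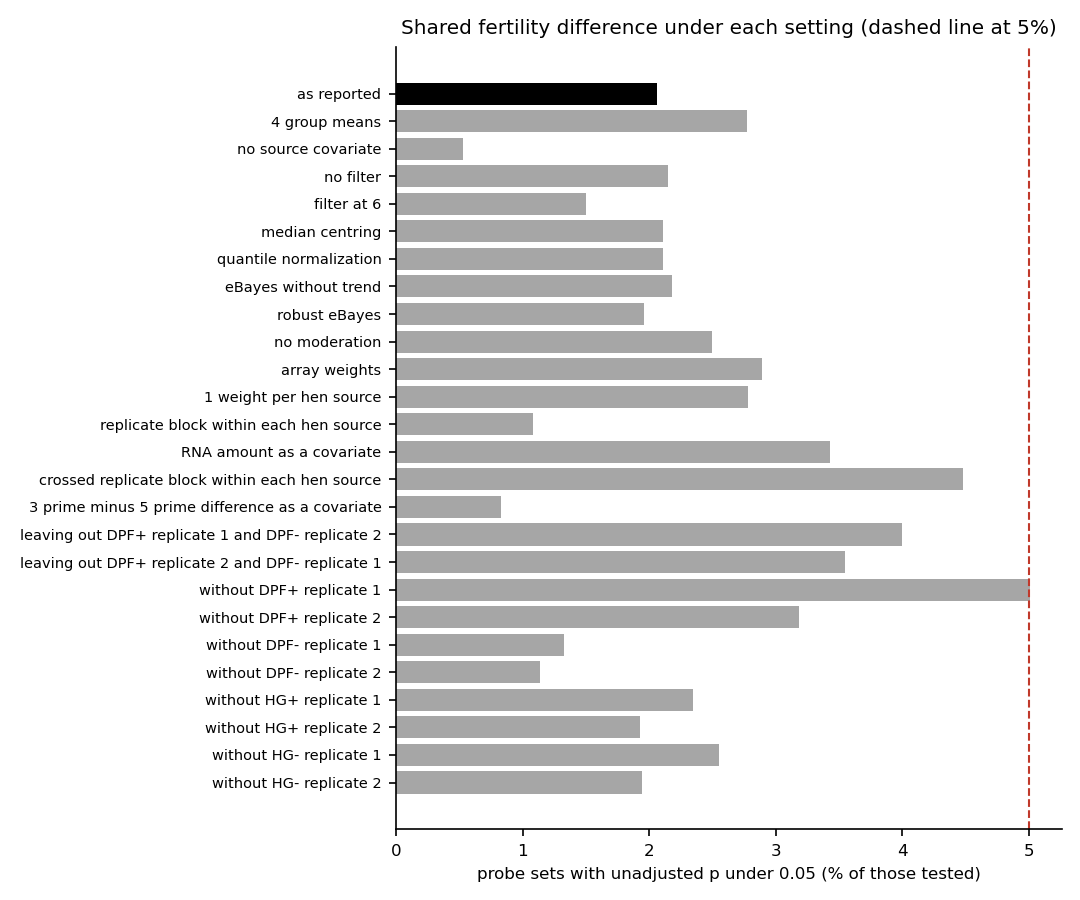
Share of tested probe sets with an unadjusted p under 0.05 for the shared fertility difference, as reported (black, 2.06%) and in each alternative fit (grey), with a dashed line at 5%. The share is lowest without the source covariate (0.527%) and highest without DPF+ replicate 1 (5.01%).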

How the data were processed

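Expression was measured on 8 Affymetrix chicken genome arrays. The deposited log2 values were made by the authors with GCRMA, a method that corrects background, normalizes arrays and summarizes probes, as the submitters' processing notes name it without a version. The sources used here do not say whether it was run on the 8 arrays jointly. Of 38535 probe sets, 96 AFFX controls and 8 with a blank value were left out, and a log2 value of 4 or more on at least 2 of 8 arrays was required, leaving 12725. Array medians lay between 2.76 and 2.79, and the number of arrays limits the precision. Genes came from the annotation table given for the array, updated by identifier through the chicken reference gene table (bGalGal1.mat.broiler.GRCg7b, names only). Of the tested probe sets 10602 had 1 gene, 57 several and 2066 none, and 21 list members were matched through a synonym.

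limma 3.58.1 in R 4.3.3 fitted hen source plus fertility (eBayes with intensity trend, two-sided, 5 residual and 3.95 prior degrees of freedom), with Benjamini-Hochberg adjustment over all tested probe sets. A fit of group means tested the difference between the sources. The scripts were tested on simulated data. In the 27 lists a gene stood for its tested probe set of highest mean. Named genes were, in each direction, up to 12 of smallest p with the same sign, no overlap within either source and a difference of at least 0.25 in each, up to 3 list members without overlap, and 6 of smallest p for opposite signs; any other list member in the text was picked with its value known. The comparison, lists and rules were chosen with earlier results of these data known. Arrays of equal replicate number were not treated as pairs in the reported fit. Whether they were prepared together cannot be known from the values. Same-numbered arrays of a source ran against each other, more so in DPF (correlation of deviations -0.521 in DPF and -0.194 in HG). In DPF the oocyte genes, for example, lay at -0.30 on DPF+ replicate 1 and -0.435 on DPF- replicate 2. They lay at 0.48 on DPF+ replicate 2 and 0.19 on DPF- replicate 1. Alternatives were other filters, scalings, variance models, weights, blocks and covariates, and leaving out arrays.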

Additional observations from a re-analysis of the deposited data

How the results depend on the processing

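With 2 arrays a group, only large differences could pass. For the shared fertility difference, 0 probe sets passed in limma under every alternative run, with a smallest adjusted p of 0.0979 (GTSF1, array weights). The number at an unadjusted p under 0.05, 262 as reported, was 67 without the source covariate, 825 of 38431 without the filter, 110 of 7310 with the filter at 6, 436 with the RNA amount as a covariate and, in settings added after seeing the data, 106 with the 3' minus 5' difference as a covariate, 509 without DPF+ replicate 1 and DPF- replicate 2, and 452 without DPF+ replicate 2 and DPF- replicate 1. Leaving out 1 array gave 145 (without DPF- replicate 2) to 638 (without DPF+ replicate 1), and the share of higher ones, 37.4% as reported, ran from 24.8% to 55% (without the same arrays). A replicate block gave 138, and a crossed replicate block 570, with 0 passing in either. The share of equal signs, 50.6% as reported, was 37.1% without the filter, 52.7% with the filter at 6, 51.8% with quantile normalization and 44.7% to 56.7% without 1 array (HG+ replicate 2 and HG+ replicate 1). A difference of 0 in either source did not count as an equal sign. The remainder in each setting is thus not all of opposite signs. The number of probe sets without overlap and with equal signs, 441 as reported, was 769 without the filter and 228 with the filter at 6. For the difference between the sources, 364 at an unadjusted p under 0.05 as reported, leaving out 1 array gave 167 (HG+ replicate 1) to 2701 (DPF+ replicate 1).

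Among the genes named for opposite signs in the sources, the fitted mean was near 0 for CCDC43 (0.03) and PRR14L (0.15). It was larger in size for RFX3 (-0.95), CSNK1E (0.735), AGA (0.495) and SEMA5A (-0.49). Counted from 4, as a DPF group of each was under it, CSNK1E was at 0.42 or more and SEMA5A at -0.44 or lower. In some settings the sign of the fitted change turned, for each of the genes named for opposite signs but AGA. With weights or the 3' minus 5' covariate the fitted change is no longer the plain mean of both sources. For genes of opposite signs in the sources its sign can then turn by that alone. With array weights SEMA5A was at 0.11, CSNK1E at -0.26, CCDC43 at -0.43 and PRR14L at -0.36, and with 1 weight per source at 0.13, -0.22, -0.445 and -0.35. With the 3' minus 5' covariate RFX3 was at 0.66, SEMA5A at 0.59, CSNK1E at -0.68, CCDC43 at -0.73, PRR14L at -0.71 and, among genes named from the lists, BAK1 at -0.041 and MRPL44 at -0.034. That measure differed more between plus and minus arrays in DPF (means 1.84 and 1.44) than in HG (1.16 and 1.07). The covariate thus took up more of the DPF difference, and these values cannot separate RNA quality from fertility. Leaving out 1 array gave -0.13 to 0.26 for CCDC43 and -0.029 to 0.42 for PRR14L. The cause was not tested.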
